A study of Arabidopsis thaliana with 6 samples.

Results

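The mitochondrial genome of Arabidopsis thaliana was represented by 107 rows of the expression table, out of 37118 rows in all, chosen as every row whose identifier begins with ATMG, the prefix of the mitochondrial genome. RNA was measured in roots on 6 one-colour NimbleGen arrays, 3 of dark-grown roots (root_dark) and 3 of light-grown roots (root_light). Plants of both groups were 12 days old, were grown in vitro in diluted MS medium, a mineral growth medium, and had their shoots under white light at a fluence rate of 75 µmol m-2 s-1. Roots of the light group were lit as well and are the control of the labels, and roots of the dark group were kept dark. The labels give no ecotype, genotype or transgene, and describe the 3 replicates of a group as independent plates. The comparison asks which transcripts of the root differ when the root itself is lit.

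Plant mitochondria keep a small genome that encodes a few subunits of the respiratory chain and of the ATP synthase, parts of the cytochrome c maturation machinery, some ribosomal proteins, and ribosomal and transfer RNAs, next to many open reading frames with no known function. Its transcripts are made by phage-type RNA polymerases encoded in the nucleus, and many are spliced and edited from C to U before translation. Most proteins of the organelle, including most subunits of the respiratory complexes, are encoded in the nucleus. Chromosome 2 of the nuclear genome also carries a large, near-identical insertion of mitochondrial DNA.

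None of the 107 identifiers is paired with a gene name in the files or in the RefSeq gene table used here (0 of 107), so the rows are described by level, by array and by difference, with 4 identifiers printed. Respiratory chain and ribosomal genes could therefore not be set against unnamed open reading frames. All levels are log2 expression values on a scale that runs from 4.7 to 15.92. Levels of different rows come from different probes, so a row's level describes its place on the array scale and not its abundance against another gene. In whole roots, fewer cells of a type and less transcript per cell cannot be told apart.

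No mitochondrial genome row differed between light-grown and dark-grown roots. In limma's test with Benjamini-Hochberg adjustment over all 37118 rows, 0 of the 107 passed an adjusted p under 0.05, where 5.65% of all rows passed (3.22% higher in light and 2.43% lower). The lowest adjusted p was 0.203, and 1 row had an unadjusted p under 0.05, against 21.2% of all rows. The groups did not overlap in 1 row, with light above dark, whereas they did not overlap in 28.4% of all rows (12.0% with light above and 16.4% with light below). The differences, light minus dark on the log2 scale, ran from -0.23 to 0.73 with a median of 0.21, and 91 were positive and 16 negative. Over all rows the median difference was -0.02 and 46.8% of differences were positive. The absence of calls does not show equal levels: the 95% interval of the difference lay within 1 on the log2 scale of 0, that is within a 2-fold change either way, for 59 rows, and for 47 rows it reached 1 or more.

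The spread between replicates was wide in these rows. The median SD within a group was 0.33 in dark and 0.45 in light, where all rows had 0.13 and 0.16. Between light replicates 1 and 2 alone the median SD of the mitochondrial rows was 0.12, close to the 0.11 of all rows.

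The arrays themselves ranked in a common order over the mitochondrial rows. The median level of the 107 rows was 12.58, 12.29 and 12.97 in dark replicates 1, 2 and 3, and 12.59, 12.68 and 13.34 in light replicates 1, 2 and 3. Light replicate 3 was the highest of the arrays and dark replicate 3 the next, while dark replicate 2 was the lowest, so the groups overlap. The median over all rows was 11.84 in every array, since the values had been quantile normalized. Light replicate 3 was the single highest array in 73 of the 107 rows, against 21.8% of all rows, and dark replicate 3 was the highest in 26. Dark replicate 2 was the single lowest array in 86 rows, or 80.4%, against 15.7% of all rows.

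**Figure D1:**
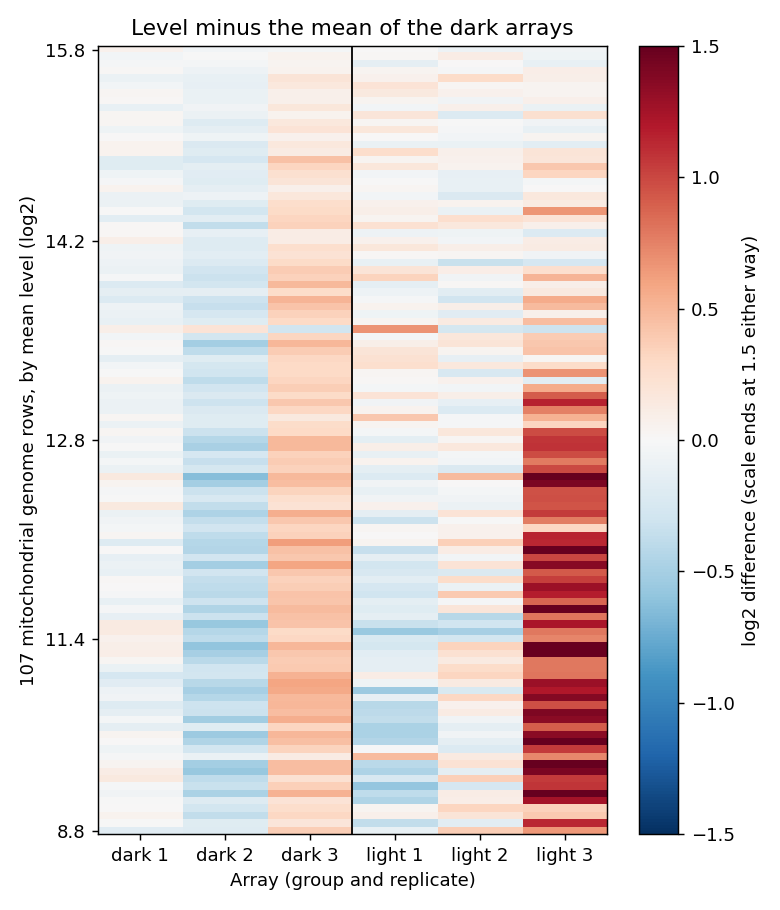
Level of each of the 107 mitochondrial genome rows in each of the 6 arrays, minus the row's mean over the 3 dark arrays (log2, colour), with rows ordered from the highest mean level at the top to the lowest at the bottom. The column of light replicate 3 is red over most of the lower part, the column of dark replicate 3 is red more weakly, and that of dark replicate 2 is blue.

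Within each group, the array numbered 3 differed from the other arrays by more than the median difference of 0.21 between groups. Dark replicate 3 lay above dark replicate 2 in 106 of 107 rows, with a median difference of 0.62, and above dark replicate 1 in 105 rows, with a median of 0.36. Dark replicate 2 differed from dark replicate 1 by a median of -0.22. Light replicate 3 lay above light replicate 1 in 88 rows, with a median difference of 0.70, and above light replicate 2 in 93, with a median of 0.65. Light replicates 1 and 2 differed by a median of 0.04. Against the mean of the dark arrays, the median shift of the 107 rows was -0.04 in light replicate 1, 0.01 in light replicate 2 and 0.72 in light replicate 3. Of the light arrays, light replicate 3 exceeded the highest dark array in 74 rows, light replicate 1 in 7 and light replicate 2 in 5.

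The size of the median difference depended on which arrays were in the fit. Without light replicate 3, and with dark replicate 3 kept, the median difference of the 107 rows was 0.00. In that fit 53 rows were positive, 53 negative and 1 at 0. The median stayed positive without any other single array. Without dark replicate 2 it was 0.05 with 72 rows positive, and without dark replicate 3 it was 0.37 with 101 positive. Without the arrays numbered 3 of both groups, a choice made after seeing the data, it was 0.135 with 86 rows positive. None of these fits brought a mitochondrial row past limma's test, where 3.71%, 2.17%, 2.49% and 1.04% of all rows passed, in the same order.

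**Figure D2:**
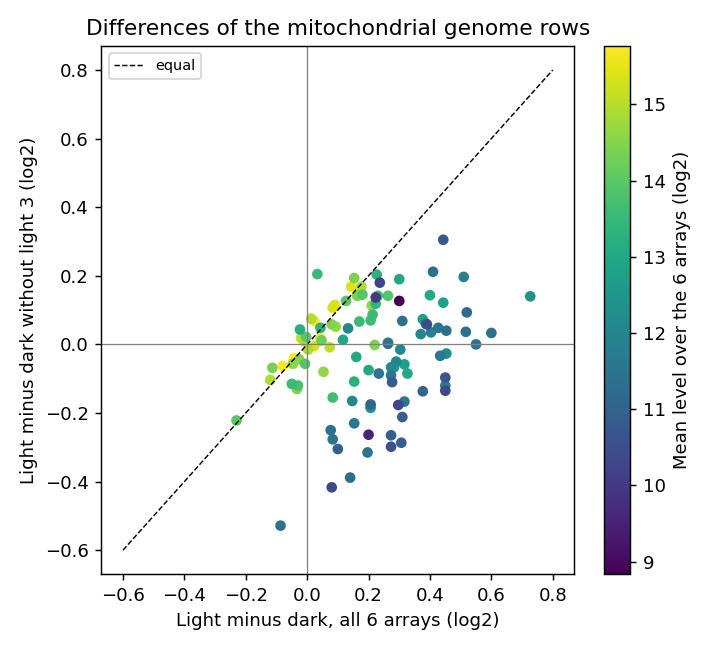
Light minus dark difference of each of the 107 rows with all 6 arrays (horizontal, log2) against the same without light replicate 3 (vertical, log2), coloured by mean level. Rows of high level lie near the line of equal values, and rows of low and middle level lie below it, around a vertical value of 0.

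The 4 identifiers printed here show the range of patterns. ATMG00040 had the lowest p of the 107 and was the only row whose groups did not overlap. Its levels were 10.51, 10.43 and 10.65 in the dark arrays and 11.01, 10.66 and 11.25 in the light arrays, so the lowest light array lay just above the highest dark array. The difference was 0.44 (SE 0.16, adjusted p = 0.203 in limma), and 0.305 without light replicate 3. It did not pass the test under any setting tried.

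ATMG01030 had the largest difference, 0.73 (SE 0.59, adjusted p = 0.571 in limma). Its levels were 12.10, 11.31 and 12.44 in dark and 11.75, 12.43 and 13.85 in light. Light replicate 1 lay below dark replicate 1 and light replicate 3 lay above every other array, and without light replicate 3 the difference was 0.14.

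ATMG00070 had the lowest difference, -0.23 (SE 0.15, adjusted p = 0.460 in limma), with 13.97, 13.84 and 14.33 in dark and 13.94, 13.71 and 13.80 in light. Its light arrays lay among or below the dark arrays, and light replicate 3 was not raised. ATMG01170 had the second lowest difference, -0.12 (SE 0.11, adjusted p = 0.633 in limma). It stood at 15.00, 14.73 and 15.10 in dark and at 14.84, 14.84 and 14.79 in light, so every light array fell inside the range of the dark arrays.

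The shift of light replicate 3 differed by level. The level classes used here were set after the values were seen and are a description with no test. Of the 59 rows with a mean level under 13, light replicate 3 was the highest array in 58, and 38 had a light replicate 3 level at least 1 above the mean of light replicates 1 and 2, which is a 2-fold excess. Of the 48 rows at 13 or above, light replicate 3 was the highest in 15 and none had such an excess. Of all rows, 3.63% had it.

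In the 16 rows under level 11, the median excess of light replicate 3 over the other light arrays was 1.405. It was 1.15 in the 26 rows from 11 to 12, 1.02 in the 17 rows from 12 to 13, 0.27 in the 20 rows from 13 to 14, 0.05 in the 18 rows from 14 to 15 and -0.06 in the 10 rows above 15. The excess thus fell from class to class as the level rose. In the same classes of all rows the median excess was between -0.02 and 0.01. Across the 107 rows, the excess correlated with mean level at a Pearson r of -0.77, where rows share the arrays and the scale and are not independent. A total of 12 of the 107 rows lay within 1 of the top of the scale, where differences are compressed.

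**Figure D3:**
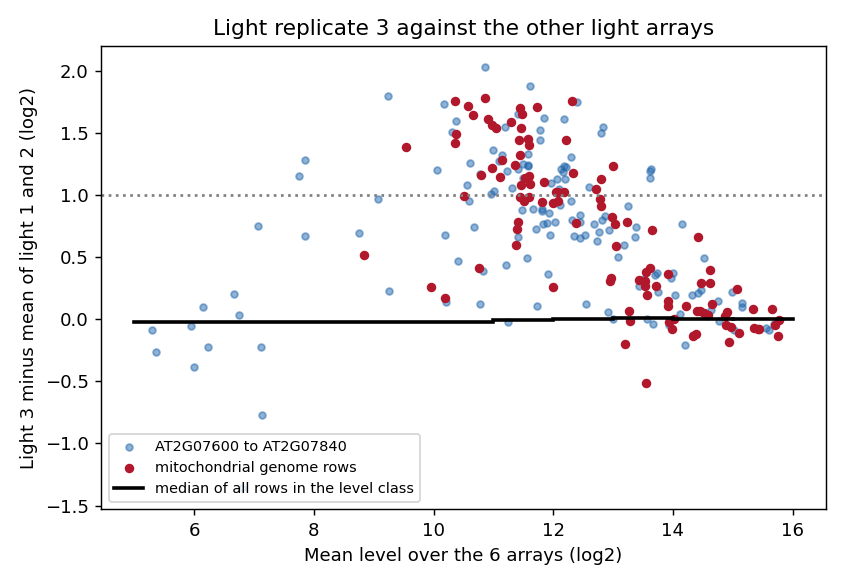
Light replicate 3 minus the mean of light replicates 1 and 2 (vertical, log2) against mean level over the 6 arrays (horizontal, log2), for the 107 mitochondrial genome rows (red) and 137 rows with identifiers from AT2G07600 to AT2G07840 (blue), with the median of all rows in each level class (black). Most red points below level 13 lie near 1 or above it, and both colours approach 0 toward level 15, while blue points under level 11 scatter more widely.

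The median difference between groups followed the same classes. With all arrays it was 0.29, 0.35, 0.30, 0.16, 0.05 and 0.03 from the lowest class to the highest. Without light replicate 3 it was -0.16, -0.02, -0.03, 0.06, 0.01 and 0.02. The median SD in light was 0.84 in the lowest class and 0.08 in the highest, where all rows had 0.33 and 0.07.

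Dark replicate 3 was raised in nearly all of the rows, and not only in those raised in light replicate 3. Dark replicate 3 lay above both other dark arrays in 105 of 107 rows, by a median of 0.495 over their mean. In the whole table it did so in 13027 of 37118 rows. Light replicate 3 lay above both other light arrays in 85 of the 107 rows (79.4%), against 35.9% of all rows. Across the 107 rows the excess of light replicate 3 and that of dark replicate 3 correlated at a Pearson r of 0.67, against 0.41 across all rows. These are descriptions over rows measured on the same arrays. The brightest of the 107 rows stood at 15.86, 15.75 and 15.76 in dark and at 15.79, 15.71 and 15.74 in light, and had no such excess. The dimmest stood at 8.51, 8.49 and 9.05 in dark and at 8.57, 9.05 and 9.33 in light, with the highest value of each group in its replicate 3.

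Nuclear loci numbered AT2G07600 to AT2G07840, the range that holds the mitochondrial insertion of chromosome 2, had array values like those of the mitochondrial rows. The probe sequences are not among the files used here, so signal from the organelle and from the nuclear copy cannot be told apart in either set. Of 137 such rows 0 passed limma's test and 0 had an unadjusted p under 0.05, against 5.65% and 21.2% of all rows. The lowest adjusted p of the 137 rows was 0.360. Their median level was 11.82, 11.41 and 12.29 in the dark arrays and 11.70, 11.85 and 12.84 in the light arrays, again highest in light replicate 3 and lowest in dark replicate 2. Light replicate 3 was the single highest array in 94 of the 137 rows and dark replicate 2 the single lowest in 95. An excess of at least 1 in light replicate 3 was seen in 47 rows (34.3%), beside 38 of 107 (35.5%) for the mitochondrial rows. By level, the median excess of these 137 rows was 0.685 in the 36 rows under 11, 1.06 from 11 to 12, 0.88 from 12 to 13, 0.36 from 13 to 14, 0.195 from 14 to 15 and -0.055 above 15. From level 11 upward it fell from class to class as in the mitochondrial rows.

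Of the 4 rows in this range with a gene symbol, ABCI4 and ABCI5 had that array order. Whether any of the 4 is a copy of a mitochondrial gene was not tested, as no sequences were used here. ABCI4 stood at 12.59, 12.33 and 13.05 in dark and 12.79, 12.64 and 13.51 in light. ABCI5 stood at 12.48, 12.27 and 12.99 in dark and 12.74, 12.58 and 13.29 in light, with its highest value in light replicate 3 as well. MCM5, which encodes a subunit of the replicative DNA helicase, had 14.23, 14.20 and 14.40 in dark and 14.34, 14.23 and 14.48 in light, a narrower spread in the same order of extremes. The transporter gene ABCC13 had its highest value, 13.29, in dark replicate 3 and stood at 12.84 in light replicate 3.

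**Figure D4:**
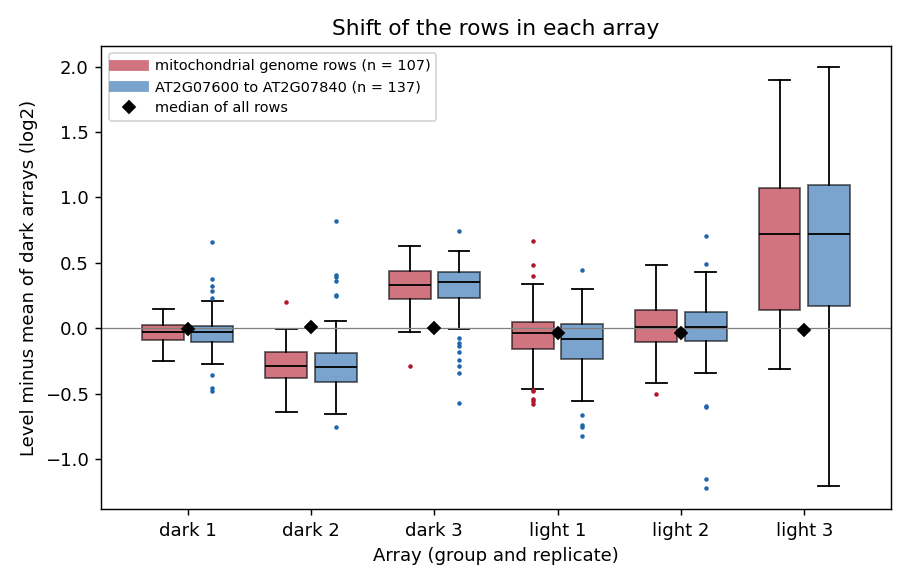
Level minus the row's mean over the dark arrays (vertical, log2) in each array, as boxes for the 107 mitochondrial genome rows (red) and the 137 rows from AT2G07600 to AT2G07840 (blue). Boxes span the quartiles with the median as a line, whiskers reach the last point within 1.5 box lengths and dots lie beyond, and diamonds mark the median of all rows, which stays near 0 while both boxes are highest in light 3.

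The plastid genome, the other organelle genome of the cell, had more of its rows near the top of the scale. Of its 87 rows (identifiers beginning with ATCG) 0 passed limma's test and 8 had an unadjusted p under 0.05, against 5.65% and 21.2% of all rows. The plastid genome's median difference was 0.08. Its median excess of light replicate 3 over the other light arrays was 0.07, and 13 rows (14.9%) had an excess of at least 1. By level, the median plastid excess was 1.58 in the 3 rows under 11, 0.575 in the 7 rows from 11 to 12, 0.64 in the 14 rows from 12 to 13 and 0.07 in the 19 rows from 13 to 14. It was 0.00 in the 16 rows from 14 to 15 and 0.01 in the 28 rows above 15, where the mitochondrial rows had little or no excess either. Across the plastid rows the excess correlated with mean level at a Pearson r of -0.66, a description as before. The difference between the organelle genomes was not tested.

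No gene in 3 lists of nuclear genes for the same organelle had an excess of at least 1 in light replicate 3. Over all rows 3.63% had it, and 1214 of these 1347 rows lay under level 11. It was seen in 8 of 4727 rows from level 13 to 14 and in 0 of 4453 above 15. The mitochondrial rows at 13 or above had none either, so its absence does not set the lists apart at those levels. The lists also hold genes under level 13, such as OTP43 at 10.56 and BIR6 at 11.86, and none of them had it. Of the mitochondrial rows under 13, 38 of 59 had it. This contrast was not tested. In a list of 34 nuclear genes of the respiratory chain and ATP synthase, the median excess of light replicate 3 was 0.015 and 0 genes had an excess of at least 1. In 13 genes of alternative respiration and uncoupling the median was -0.12, and in 20 genes of mitochondrial transcription, splicing, editing and RNA decay it was 0.04, with 0 genes at 1 or more in both. Dark replicate 3 was the single highest array in 12 of the 20 genes of the last list. Of the respiratory chain list 28 of 34 lay within 1 of the top of the scale, where a rise had limited room. Over all rows above level 15 the differences between groups ran from -0.82 to 1.06. The list of 20 RNA genes had 2 so placed and a median level of 13.13.

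Among the nuclear respiratory chain and ATP synthase genes 1 of 34 (2.94%) rose in light-grown roots, against 3.22% of all rows. None fell and 33 did not pass, with a median difference of 0.01. The gene that rose, CYTC-2, encodes cytochrome c, the mobile electron carrier between complexes III and IV. It stood at 14.08, 14.02 and 14.16 in dark and at 14.84, 15.12 and 14.63 in light, so every light array lay above every dark array. The difference was 0.78 (SE 0.14), or 1.71-fold, with adjusted p = 0.0350 in limma. The call was lost without any single array other than light replicate 3, with adjusted p from 0.0635 to 0.134, and with a replicate block, with adjusted p = 0.106. The difference itself was 0.65 to 0.81 without those arrays and 0.78 with the block, and calls over all rows fell in these fits as well. Its paralog CYTC-1 differed by 0.08 (SE 0.07), within 1 of the top of the scale. CI51 of complex I differed by -0.02 (SE 0.08), SDH1-1 of complex II by 0.09 (SE 0.08) and ATP3, the gamma subunit of the ATP synthase, by -0.08 (SE 0.11).

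In the alternative respiration and uncoupling list 1 of 13 (7.69%) rose, against 3.22% of all rows. None fell and 12 did not pass, with a median difference of 0.15. AOX1D, an alternative oxidase that passes electrons from ubiquinol to oxygen without pumping protons, had levels of 7.12, 7.10 and 6.90 in dark and 10.15, 9.84 and 10.42 in light. All light arrays lay far above all dark arrays, and light replicate 3 was not apart from the other light arrays. The difference was 3.10 (SE 0.16), or 8.55-fold, with adjusted p = 0.00105 in limma. The dark values lie in the dim part of the scale, so the fold is approximate. AOX1A, the main isoform induced by stress, differed by 0.10 (SE 0.08, adjusted p = 0.541 in limma), with group means of 14.36 ± 0.02 for dark and 14.46 ± 0.09 for light (SD, n = 3). NDC1, a type II NAD(P)H dehydrogenase named after its values were seen, was at 13.01, 12.95 and 12.94 in dark and 13.33, 13.32 and 13.25 in light. Its groups did not overlap, and the difference of 0.33 (SE 0.07) missed the threshold with adjusted p = 0.0526 in limma. NDC1 passed with rows below the 25th percentile of signal left out (adjusted p = 0.0227 in limma) or below the median left out (0.0104). It also passed under array weights (0.0454) and under a robust prior with a trend (0.0290). In the same order, 11.5%, 15.7%, 6.34% and 10.1% of all rows passed, against 5.65% in the main fit. NDC1 did not pass with any 1 array left out (adjusted p from 0.089 to 0.184 in limma). Nor did it pass with a replicate block (0.118), without the arrays numbered 3 (0.183) or with the arrays centred on the median of the mitochondrial rows (0.943).

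In the list of mitochondrial transcription, splicing, editing and RNA decay 0 of 20 passed limma's test, against 5.65% of all rows. At an unadjusted p under 0.05, 3 were lower and none higher, against 21.2% of all rows in either direction. The median difference was -0.01. MGP3, a mitochondrial RNA polymerase, differed by -0.15 (SE 0.12, adjusted p = 0.560 in limma), and AT5G15700 by -0.01 (SE 0.11, adjusted p = 0.983). OTP43, a pentatricopeptide repeat protein needed for splicing of a mitochondrial transcript, was named after its values were seen. It had 10.72, 10.79 and 10.75 in dark and 10.33, 10.51 and 10.27 in light, a difference of -0.38 (SE 0.09) with adjusted p = 0.0712 in limma. The editing factors MORF1 and MORF3 differed by 0.17 (SE 0.10) and 0.24 (SE 0.13), the RNA helicases PMH1 and PMH2 by 0.06 (SE 0.12) and -0.13 (SE 0.07).

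**Figure D5:**
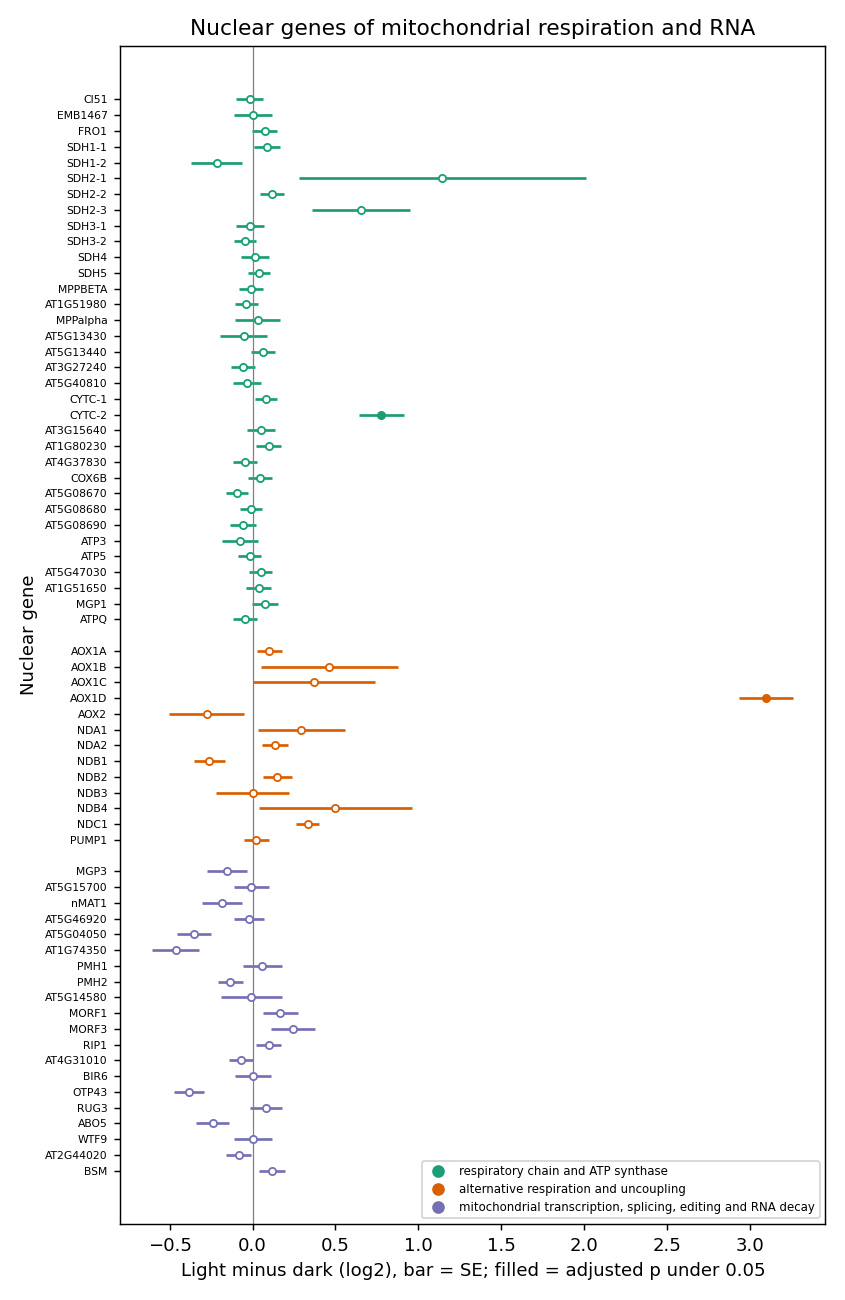
Light minus dark difference (horizontal, log2, with SE as bars) of 67 nuclear genes in the 3 lists (colour), 1 gene per line by symbol or identifier. Filled points passed the test (CYTC-2 and AOX1D), and all others are open.

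Levels of different probes do not test the labelled tissue, and marker levels are given as a description. The 8 root markers had mean levels from 9.97 (WOX5, of the quiescent centre) to 15.8 (CASP1, of the endodermis). Of 6 shoot and stomatal markers, 5 had mean levels from 6.46 to 7.51, and KNAT1, a homeobox gene of the shoot meristem, was at 12.26. Limma's test called KNAT1 higher in light-grown roots by 1.13 (SE 0.15, adjusted p = 0.0147) and STM, another such gene, lower by -0.84 (SE 0.12, adjusted p = 0.0202), while no root marker passed. Without light replicate 3 the STM call was lost (adjusted p = 0.0578 in limma) and KNAT1 passed (0.0161). Without the arrays numbered 3 both calls were lost, with adjusted p = 0.121 for STM and 0.0740 for KNAT1. The median of the 6 in each array lay between 7.16 and 7.34 in dark and between 6.87 and 7.22 in light. None of the 6 had an excess of at least 1 in light replicate 3, against 3.63% of all rows. The median excess of the 6 there was -0.44. The part of these markers in the mitochondrial values was not tested.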

How the data were processed

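Per the labels, RNA of 6 root samples was copied into double-stranded cDNA, labelled with Cy3 and hybridised to one-colour NimbleGen arrays. The authors deposited 1 log2 value per array for each of 37118 transcript models. All 6 arrays held nearly the same set of values once sorted, so these had been quantile normalized, and they entered the tests unchanged. Per the submitters' processing notes limma was used, with no version. The sources used here do not give the background correction, the probe summary, the build or the annotation release. Arrays have no read depth, detection calls were not used, and the number of arrays limits the precision.

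Light minus dark was fitted over all rows by the lmFit and eBayes functions of limma 3.58.1 under R 4.3.3, without covariates. Two-sided p-values received a Benjamini-Hochberg adjustment over the whole table, with a threshold of 0.05. SE and 95% intervals are limma's moderated ones. The fit was tested on simulated data with independent noise for each row and array. Such data lack shifts shared by many rows of an array, so that test does not bear on them. Members and lists were chosen with earlier results of these data known. Gene symbols were looked up in RefSeq's TAIR10.1 table, which names 47 of the 67 listed nuclear genes. For a locus with several models the one with the highest mean stood for it. Planned classes by gene name were not formed because no ATMG identifier matched. In their place the rows of lowest p, of highest and of the lowest differences were printed, and nuclear genes past the test with AOX1A and AT5G15700. Other nuclear genes were named after their values were seen, as examples.

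The replicate numbers were checked as pairs: deviations from the group means correlated at 0.01, 0.06 and 0.41 between arrays of the same number, so they were not used as pairs. Over the mitochondrial rows these correlations were -0.07, 0.45 and 0.67. The highest there was between arrays of unlike number, 0.77 for dark replicate 2 with light replicate 1, which was 0.36 over all rows. Deviations within a group sum to 0, so the values are not independent of each other. Figures were drawn with matplotlib 3.10.9.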

Additional observations from a re-analysis of the deposited data

How the results depend on the processing

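The count of mitochondrial genome rows past the test was 0 under all 15 alternatives: a replicate block, leaving out each array, centring on array medians or on the median of the ATMG rows, a repeated quantile normalization, leaving out rows below the 25th percentile or the median of signal (67 of 107 rows tested in the latter), a trend and robust variance prior, array weights, and, chosen after seeing the data, leaving out the arrays numbered 3 of both groups. Centring on array medians and the repeated quantile normalization are no independent checks. The values were quantile normalized already, so both returned the main fit, with the same 2099 rows called. With the replicate block the lowest adjusted p was 0.138 and 8 rows had an unadjusted p under 0.05. The lowest adjusted p over all alternatives was 0.0966, without light replicate 2. The median difference ranged from 0.00 to 0.37 without any 1 array. Centring on the ATMG rows lowered the median difference of all rows from -0.02 to -0.27, and the mitochondrial differences then ran from -0.49 to 0.47. The rows from AT2G07600 to AT2G07840 gave 0 calls throughout. Plastid calls were 0, and 2 and 5 with rows below the 25th percentile and the median left out and 4 with the trend and robust prior. The nuclear respiratory chain count of 1 was 0 with the replicate block, with centring on the ATMG rows and without the arrays numbered 3, and 0 to 1 without any 1 array. The alternative respiration count of 1 became 2 with the 25th percentile filter, the trend and robust prior and array weights, with NDC1 as the gene gained. It was 1 with the median filter, where NDC1 passed and AOX1D was not tested. The RNA list's 0 became 1 with either filter, a gene lower in light each time, but not the same gene. It was OTP43 with the 25th percentile filter (adjusted p = 0.0364 in limma). With the median filter OTP43 was not tested and another gene passed. AOX1D passed under every alternative that tested it. Rows called in the whole table numbered 2099, and 958 with the replicate block, 700 with centring on the ATMG rows, 386 without the arrays numbered 3, 3215 with the 25th percentile filter, 3731 with the trend and robust prior, and 794 to 1378 without any 1 array. Classes by gene name were not run. With 3 arrays a group and no detection calls, small differences could be missed. Near the top of the scale, where differences are compressed, 45 of 4453 rows above level 15 passed (1.01%), against 5.65% of all rows.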
